A study of Mus musculus with 8 samples.

Results

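The genes described here are 9 cytotoxic effectors, the granzymes Gzma, Gzmb, Gzmc, Gzmd, Gzme, Gzmf and Gzmk, the pore-former Prf1 and the granule membrane protein Nkg7, chosen by name from the 32502 genes with at least 1 UMI (unique molecular identifier, the tag that counts 1 captured mRNA molecule) in the 8 Drop-seq count tables. All 9 were found. The study used Drop-seq, a droplet method that tags the 3' end of each mRNA, to profile brain tissue. The tissue came from naïve mice and from mice carrying GL261 glioma, a syngeneic mouse glioma line. The mice were C57BL/6 by the labels and C57BL/6N by the study's methods. They were either wild type (WT, Irg1/Acod1 +/+) or Acod1 knock-out (KO, Irg1/Acod1 -/-). Acod1 encodes the enzyme that makes itaconate in activated macrophages. Each of the 8 libraries stood alone in its genotype and condition: naïve WT and naïve KO, which each name 2 untreated mice, and 1 WT and 1 KO tumour-bearing mouse at the early (5 to 10 mm3), intermediate (20 to 25 mm3) and late (30 to 35 mm3) stage after implantation of 500 GL261 cells, in the right striatum by the labels and in the frontal cortex by the study's methods.

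By the study's methods, the KO allele was a germline insertion cassette between exons 3 and 5 of Acod1 in every cell of the mouse, the controls were C57BL/6N littermates, and the WT and KO mice differed in sex at the early and at the intermediate stage, so sex and genotype cannot be told apart there. Ages are not given in the labels. The same GL261 line was implanted in both genotypes. Acod1 itself gave 199 UMIs in the WT early table and 47 in the KO early table, 29 and 28 at the intermediate stage, 17 and 52 at the late stage, and 2 and 0 in the naïve tables. Where these 3' tags lie relative to the cassette was not tested, so the UMIs do not check the genotype labels. The tables held between 2885345 (KO naïve) and 9950713 UMIs (WT intermediate) over 3000 barcodes each, and 5698 cells passed the filters. With 1 library per genotype and stage, a single condition has no replicate, and the intervals below cover counting error only.

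Cytotoxic T cells and natural killer (NK) cells kill target cells by releasing granules. Perforin, encoded by Prf1, makes pores through which the granzymes, a family of serine proteases, enter the target cell. Granzyme B cleaves caspases and their substrates and is the best known killer of the family, granzyme A is a tryptase, and granzymes C, D, E and F are rodent relatives of granzyme B that arise from gene duplication.

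In the GRCm38 annotation (GENCODE M21) 5 of the members lie in 1 tandem cluster of 7 granzyme genes on the minus strand, chr14:56117626-56262260, in the order Gzme, Gzmd, Gzmg, Gzmn, Gzmf, Gzmc and Gzmb, over 145 kb. Gzma (chr13:113093825-113100981) and Gzmk (chr13:113171608-113225908) are neighbours 70.6 kb apart on the minus strand, while Prf1 (chr10:61297833-61304680) and Nkg7 (chr7:43437073-43438249) stand alone on the plus strand. The 200 bases before the annotated start (RefSeq, GRCm38.p6, where all 9 genes matched) are shown for the granzymes of the cluster and for Prf1, because Gzmc and Prf1 are the members that passed the test between NK-like and T-like cells below and the others are neighbours of Gzmc in the cluster. They run 5' to 3' on the gene's strand, from chr14:56262335-56262534 (Gzmb), chr14:56234658-56234857 (Gzmc), chr14:56132594-56132793 (Gzmd), chr14:56120626-56120825 (Gzme), chr14:56211408-56211607 (Gzmf), all minus strand, and chr10:61297636-61297835 (Prf1, plus strand). Capitals mark the RUNX core TGTGGT, read on either strand so that its reverse is written ACCACA, the AP-1 site TGANTCA and the cAMP response element TGACGTCA; no marked stretch overlaps another.
Gzmb: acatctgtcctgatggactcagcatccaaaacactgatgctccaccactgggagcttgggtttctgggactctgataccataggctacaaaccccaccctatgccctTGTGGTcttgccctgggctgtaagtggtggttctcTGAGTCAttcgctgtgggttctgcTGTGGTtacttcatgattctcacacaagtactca
Gzmc: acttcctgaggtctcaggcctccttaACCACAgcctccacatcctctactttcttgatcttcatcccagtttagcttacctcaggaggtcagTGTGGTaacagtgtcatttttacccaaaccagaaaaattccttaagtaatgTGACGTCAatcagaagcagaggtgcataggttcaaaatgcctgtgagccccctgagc
Gzmd: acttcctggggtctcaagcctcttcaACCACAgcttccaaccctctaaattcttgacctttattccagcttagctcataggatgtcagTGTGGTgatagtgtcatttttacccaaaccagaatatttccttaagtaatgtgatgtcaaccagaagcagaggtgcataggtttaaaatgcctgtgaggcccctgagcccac
Gzme: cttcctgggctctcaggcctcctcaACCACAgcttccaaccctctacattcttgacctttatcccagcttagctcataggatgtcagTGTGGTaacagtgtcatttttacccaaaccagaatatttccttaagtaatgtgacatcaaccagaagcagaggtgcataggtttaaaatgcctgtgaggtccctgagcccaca
Gzmf: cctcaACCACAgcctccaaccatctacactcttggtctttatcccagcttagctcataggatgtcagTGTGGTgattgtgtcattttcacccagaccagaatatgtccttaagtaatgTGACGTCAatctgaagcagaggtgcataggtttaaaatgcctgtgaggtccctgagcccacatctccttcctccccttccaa
Prf1: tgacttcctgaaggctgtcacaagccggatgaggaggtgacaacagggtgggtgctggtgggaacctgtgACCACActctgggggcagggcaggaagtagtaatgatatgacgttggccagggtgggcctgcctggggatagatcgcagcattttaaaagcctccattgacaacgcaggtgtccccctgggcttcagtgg

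The RUNX core stood in 8 of the 9 promoters (all but Gzmk) and in 11.2% of the 32851 mouse promoters in windows of the same length. The AP-1 site stood in Gzmb (58 bases before the start) and in 5.48% of all promoters, and the cAMP response element in Gzmc and Gzmf and in 1.47%. The exact stretches CCGGAAG, a form of the ETS site (6.29% of promoters), and TATAAA, the TATA box (9.96%), were in none of the 9. Other forms of these sites were not searched, so their absence is not shown. The promoters of Gzmc, Gzmd, Gzme and Gzmf were 87.4% to 94.97% identical where aligned, so their shared motifs are copies of 1 sequence and not separate observations. The ends of the transcripts, which Drop-seq reads, are alike as well: over the last 400 bases Gzmd and Gzme were 95.8% identical with an unbroken run of 70 shared bases, and Gzmd and Gzmf 87.6% with a run of 71, whereas Gzmc shared at most 71.9% with them. How the counting dealt with reads that match several of these genes is not given in the sources used here, so the counts of Gzmd, Gzme and Gzmf are uncertain among themselves, while Gzmc and Gzmb are distinct.

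Clustering without the 9 genes and 3 other granzymes placed 186 of the 5698 cells in 1 lymphocyte cluster, of which 185 came from tumour-bearing mice. It was divided by UMIs of the CD3 chains: 146 cells with at least 1 UMI of Cd3d, Cd3e or Cd3g were called T-like, 31 cells with none of these and at least 1 NK marker UMI were called NK-like (30 from tumour-bearing mice and 1 from the KO naïve library), and 9 cells had neither, 6 of them with B cell UMIs. T-like cells numbered 59 in WT early, 25 in KO early, 0 in WT intermediate, 33 in KO intermediate, 1 in WT late and 28 in KO late, and NK-like cells 6, 6, 6, 5, 3 and 4. The lymphocytes of the WT intermediate library were therefore all NK-like. Lymphocytes made up 14.8% and 14.5% of non-tumour cells in WT and KO early, 8.22% and 13.98% at the intermediate stage and 2.899% and 13.7% at the late stage.

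Of the markers that the cut did not use, the T cell receptor constant gene Trac gave 1023 UMIs in T-like and 2 in NK-like cells, and Cd5 was at 0 in NK-like cells, which kept 84 UMIs of Trbc1, another receptor constant gene. The 10 NK markers, part of the cut itself, summed to 4063 CPM (UMIs per 1000000 UMIs of the class) in NK-like and 420 CPM in T-like cells. The cut was not sharp, since 5 T-like cells had exactly 1 CD3 UMI (the median was 8) and 74 T-like cells also held NK marker UMIs. B cell markers summed to 453 CPM in NK-like and 139 CPM in T-like cells, led by Ighm, and in the NK-like cells of WT early to 33 UMIs with Cd79a at 0. The macrophage list summed to 2363 and 1680 CPM, led by Plac8, and Mrc1, Il1b, F13a1 and Ms4a7 were at 0 in NK-like cells. Mast cell and basophil genes gave 13 UMIs in NK-like cells, 9 of them in WT intermediate, and neutrophil genes gave 0 in both classes. The part of these cells in the levels below was not tested.

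Among filtered cells, most transcripts of 6 of the 9 genes came from these few cells with or without WT intermediate. For Gzmd, Gzme and Gzmf this held only with WT intermediate included. Of the UMIs in filtered cells, lymphocytes, which were 186 of 5698 cells, held 92.4% for Gzma, 81.8% for Gzmb, 91.2% for Gzmc, 93.6% for Gzmd, 98.2% for Gzme, 78.9% for Gzmf, 80.6% for Gzmk, 74.3% for Prf1 and 82.9% for Nkg7. Without WT intermediate the share was 0 of 11 UMIs for Gzmd, 0 of 4 for Gzme, 34 of 331 (10.3%) for Gzmf, of which 293 lay in the tumour cell cluster, 59.6% for Prf1 and 80.4% to 92.5% for the other 5 genes. The UMIs in filtered cells were 1562 of the table total of 2212 for Gzma and 1606 of 2219 for Gzmb, the rest lying in barcodes that did not pass the filters. Over all barcodes, lymphocytes held 25 of the 50 Gzmk UMIs and, without WT intermediate, 99 of the 245 Prf1 UMIs. Among the other cells 215 of 5512 (3.90%, exact binomial 95% interval 3.405 to 4.446) held any UMI of the 9 genes. In macrophage-like cells, called TAM II here, Gzmb stood at 12.8 CPM and was seen in 2.51% of cells, and in tumour cells at 8.41 CPM and 1.46%, against 1633 CPM in T-like cells. KO late carried these values, with 196 of 245 tumour cell and 23 of 28 TAM II UMIs, and without it Gzmb stood at 1.95 CPM in tumour cells and 2.96 CPM in TAM II cells. Median depths were 3132 UMIs per TAM II cell, 4902 per tumour cell and 3062 per T-like cell, so depth did not order these shares. The source of these UMIs was not tested, and they are not read as expression by these cells.

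The highest values outside the lymphocytes sat in cells with lymphocyte transcripts. Of the 18 other cells with at least 10 UMIs of the 9 genes, 16 fell in the tumour cell cluster, and 16 had CD3 and 13 NK marker UMIs. The highest was a KO late barcode of 45600 UMIs in the tumour cell cluster, with 277 Gzmf, 75 Gzmb, 36 Gzmc, 16 Prf1 and 21 CD3 UMIs.

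**Figure D1:**
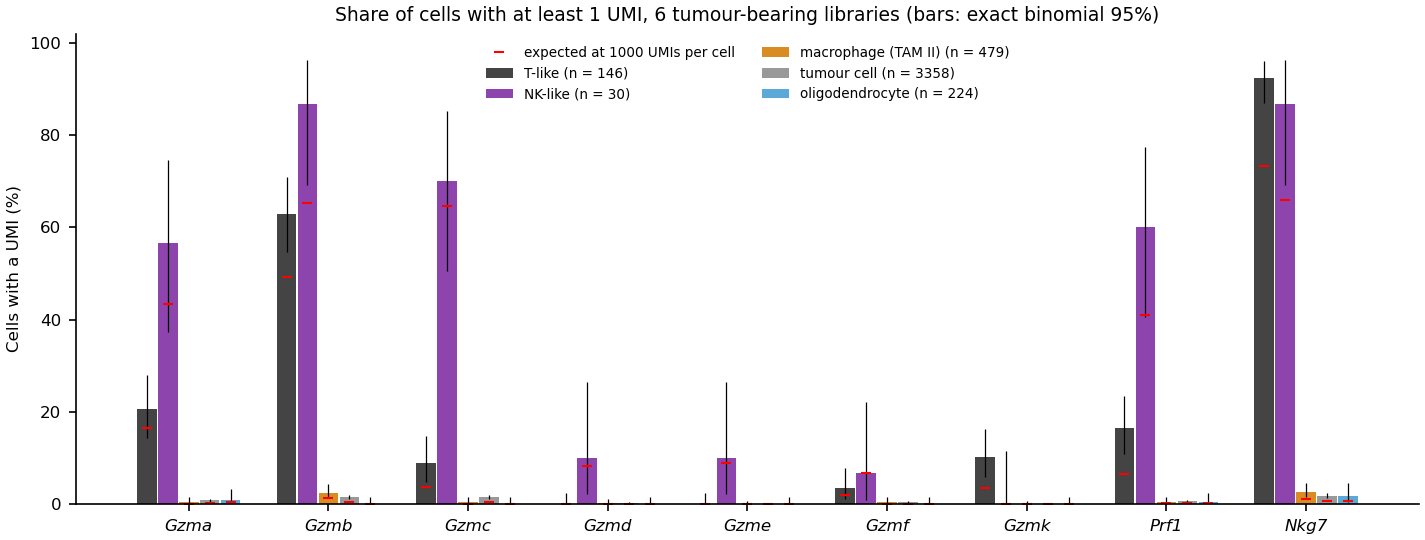
Share of cells (percent) with at least 1 UMI of each of the 9 genes in T-like, NK-like, TAM II, tumour and oligodendrocyte cells of the tumour-bearing libraries; error bars are exact binomial 95% intervals and red dashes the share expected at 1000 UMIs per cell. Gzmb was seen in 63.0% of T-like and 86.7% of NK-like cells against 2.51% of TAM II cells.

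Gzmb and Nkg7 were the effectors found in most cytotoxic lymphocytes. Nkg7, a granule membrane protein needed for degranulation, was detected in 135 of 146 T-like cells (92.5%) and 26 of 30 NK-like cells (86.7%) of tumour-bearing mice. Its level in T-like cells was 1614 CPM in WT early, 1633 in KO early, 1555 in KO intermediate and 1967 in KO late (1692 ± 186, SD, n = 4 libraries). In NK-like cells it was 970 CPM in WT early, 1740 in KO early, 764 in WT intermediate, 1303 in KO intermediate and 1167 in KO late, with 1984 in the 3 cells of WT late. The 2 classes overlapped, and relative to its mean Nkg7 varied least among libraries of the members found in both classes.

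Gzmb was detected in 92 of 146 T-like cells (63.0%) and 26 of 30 NK-like cells (86.7%), or 49.3% and 65.3% once every cell was thinned to 1000 UMIs. In T-like cells it reached 1973 CPM in WT early, 1453 in KO early, 816 in KO intermediate and 2528 in KO late (1693 ± 731, SD, n = 4). In NK-like cells the values were 848, 2365, 3008, 1629 and 1667 CPM in WT early, KO early, WT intermediate, KO intermediate and KO late, and 5189 in WT late. The classes again overlapped.

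The level of perforin mRNA was higher in NK-like than in T-like cells. Prf1 stood at 303 CPM in WT early, 624.7 in KO early, 2268 in WT intermediate, 652 in KO intermediate and 1084 in KO late NK-like cells, and at 611 in WT late. In T-like cells it stood at 34.2, 138, 56.5 and 214 CPM in WT early, KO early, KO intermediate and KO late. The groups did not overlap. Prf1 was seen in 18 of 30 NK-like cells (60%) and 24 of 146 T-like cells (16.4%), and all 18 Prf1-positive NK-like cells also held Gzmb. In the WT intermediate value 1 barcode gave 71 of 95 UMIs, and without it the level was 1101 CPM.

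**Figure D2:**
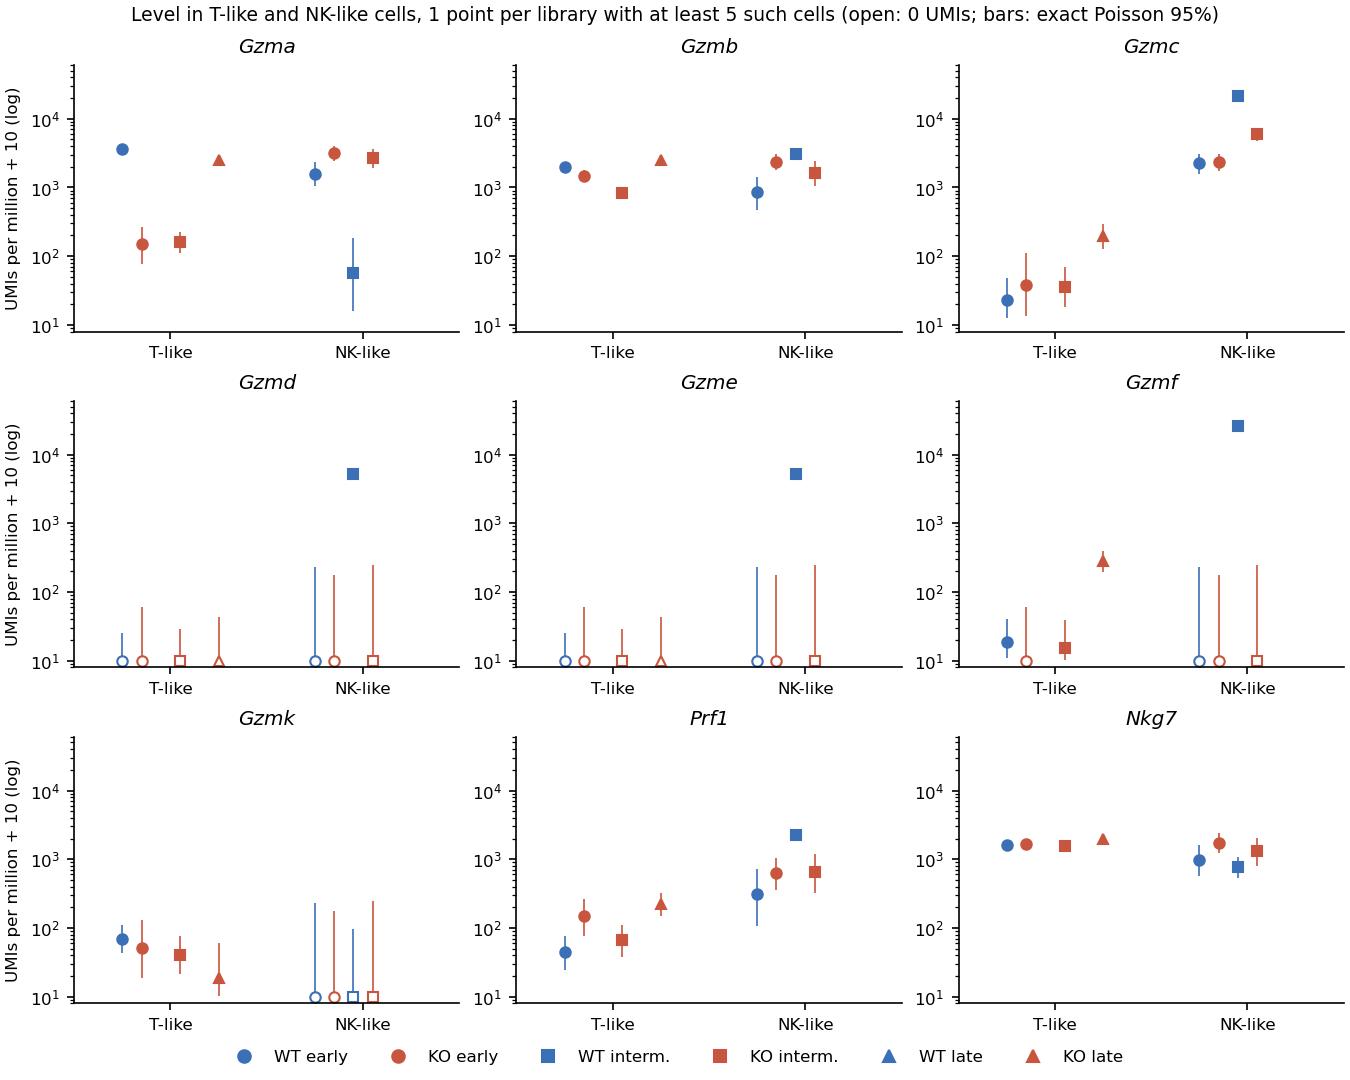
Level of each gene (CPM + 10, log axis) in T-like and NK-like cells, 1 point per library with at least 5 cells of the class, coloured by genotype and shaped by stage, with exact Poisson 95% intervals; open points had 0 UMIs. Gzmc and Prf1 lay higher in all NK-like sums than in all T-like sums, whereas Gzmb and Nkg7 overlapped.

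Granzyme C was the granzyme that set the NK-like cells apart. Gzmc reached 2242 CPM in WT early, 2320 in KO early, 21104 in WT intermediate, 5930 in KO intermediate and 24089 in KO late NK-like cells, and 1832 in WT late. The T-like values were 12.8, 27.7, 25.7 and 187 CPM in WT early, KO early, KO intermediate and KO late. Every NK-like library thus lay above every T-like library. The transcript was found in 21 of 30 NK-like cells (70.0%) and 13 of 146 T-like cells (8.90%), and in all 13 of those T-like cells together with Gzmb. It was unevenly spread: all 6 NK-like cells of WT intermediate were positive, with 5 to 471 UMIs, 3 of 4 in KO late had 83 to 121 UMIs, and in KO early 1 of 6 cells held all 52 UMIs.

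The paired test put numbers on these differences. In the 3 libraries with at least 5 cells of both classes (WT early, KO early and KO intermediate), 2 of the 5 testable members passed the test, Gzmc and Prf1, both higher in NK-like cells, where 4.61% of the 933 genes tested were called in either direction and 1.5% higher. Gzmc had a log2 fold change of 7.34 (SE 0.37, edgeR adjusted p = 1.90e-06) and was higher in 3 of 3 libraries. T-like cells held only 3, 2 and 5 Gzmc UMIs there, and the gene passed the filter on low counts through its NK-like level. Its call is therefore not read as support for the difference, and the size of the fold is loosely set. The ratios were 175 (exact 95% counting interval 55.4 to 887) in WT early, 83.8 (22.1 to 710.5) in KO early and 231 (95.5 to 729) in KO intermediate. Prf1 had a log2 fold change of 2.88 (SE 0.54, edgeR adjusted p = 0.0121), also in 3 of 3, with ratios of 8.87, 4.51 and 11.5 by library. T-like cells held 8, 10 and 11 Prf1 UMIs in these libraries, and Prf1 too passed the filter through its NK-like level. The Prf1 call is likewise not read as support for the difference. In KO late, which had 4 NK-like cells and did not enter the test, the ratios were 129 for Gzmc and 5.07 for Prf1. The Prf1 call was lost without KO early (adjusted p = 0.113) or without KO intermediate (adjusted p = 0.210) in the same edgeR test, at log2 fold changes of 3.20 and 2.502.

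Gzmb (log2 fold change 0.22, SE 0.39, edgeR adjusted p = 0.898) and Nkg7 (-0.28, SE 0.26, edgeR adjusted p = 0.776) did not pass. Gzma did not pass either, at 2.45 with an SE of 0.99 (edgeR adjusted p = 0.353). It was lower in NK-like than in T-like cells of WT early (ratio 0.432) and 22.6 and 17.9 times as high in KO early and KO intermediate. It passed without WT early, at 4.28 (edgeR adjusted p = 9.40e-15), and also with all libraries when low counts were not filtered (1.92, adjusted p = 8.04e-05) or cells of at least 500 genes were used (1.89, adjusted p = 0.00648). Gzmd, Gzme, Gzmf and Gzmk were too low in these 3 libraries to be tested.

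Gzmd, Gzme and Gzmf were found in the NK-like cells of 1 library. In WT intermediate they stood at 5252, 5252 and 25808 CPM, and they had 0 UMIs in the NK-like cells of the other 5 tumour-bearing libraries. These levels came from few cells. A barcode of 20080 UMIs, with 50 NK marker UMIs and no CD3 UMI, held 192 Gzmd, 192 Gzme, 937 Gzmf, 471 Gzmc, 83 Gzmb and 71 Prf1 UMIs and no Gzma, so that 9.75% of its transcripts came from the 9 genes. This barcode was among the 50 in its library with the highest doublet scores, so that it may hold more than 1 cell, and it held 75% of the Gzmd, 80.7% of the Gzme and 64.2% of the Gzmf UMIs in all 8 tables.

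Other barcodes of the library held these genes too. A second cell of the same library, with 2269 UMIs, held 24 Gzmd, 21 Gzme, 144 Gzmf, 93 Gzmc and 12 Prf1 UMIs (13.2% of its UMIs from the 9 genes), and another, with 6835 UMIs, held 183 Gzmc, 4 Gzmd, 7 Gzme and 0 Gzmf. All 3 NK-like cells with Gzmd or Gzme therefore also held Gzmc. Without the barcode of 20080 UMIs, which is also the result of removing the doublet-like cells, the 5 remaining NK-like cells of WT intermediate stood at 6603 CPM for Gzmf, 1284 for Gzmd and Gzme each and 18939 for Gzmc. In T-like cells Gzmd and Gzme were seen in 0 of 146 cells, which allows a share of cells with a UMI of up to 2.05% and a level of up to 4.85 CPM (3 counts), and Gzmf was at 34 UMIs in 5 cells, 31 of these UMIs in CD8 cells of KO late.

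**Figure D3:**
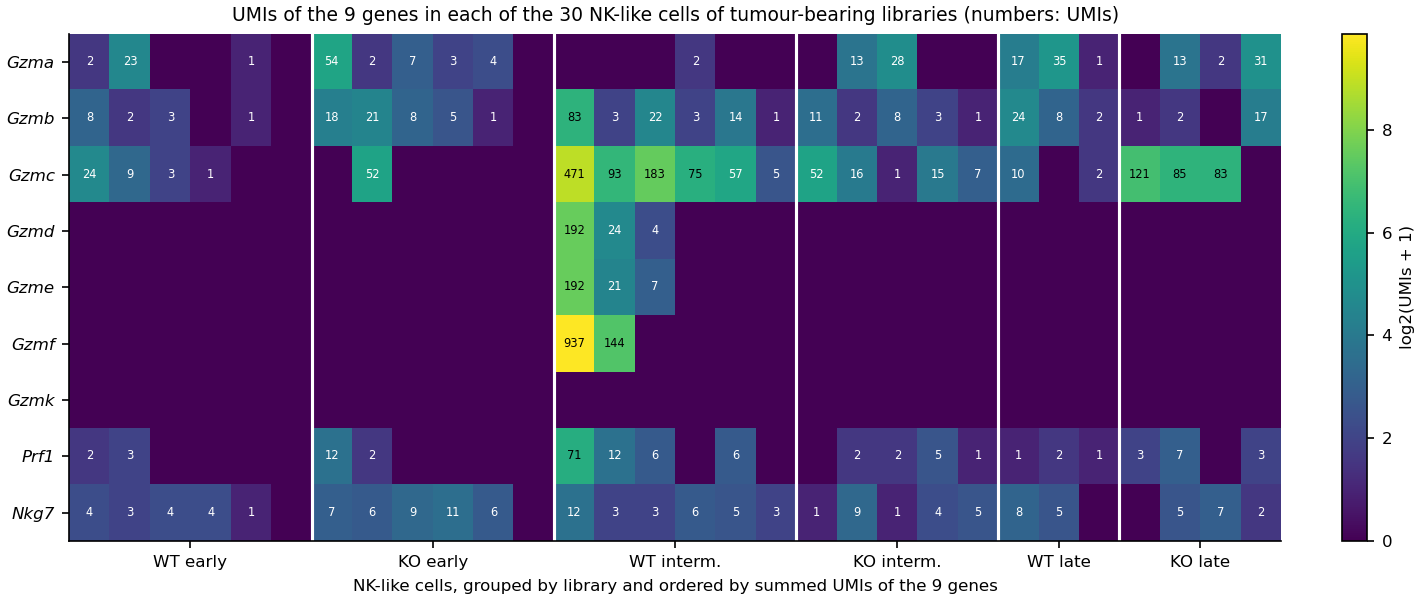
UMIs of the 9 genes (colour, log2 of UMIs + 1; the numbers are UMIs) in each of the 30 NK-like cells of tumour-bearing mice, grouped by library. Gzmd and Gzme stand in 3 cells and Gzmf in 2 cells of WT intermediate, led by 1 barcode with 937 Gzmf UMIs, while Gzmc is spread over 21 cells.

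Gzma was seen in a minority of T-like cells and in most NK-like cells. It was present in 30 of 146 T-like cells (20.5%) and 17 of 30 NK-like cells (56.7%), at pooled levels of 1895 CPM (exact Poisson 95% interval 1788 to 2007) and 2075 CPM (1820 to 2356). By library, T-like cells gave 3651 CPM in WT early, 138 in KO early, 149 in KO intermediate and 2484 in KO late (1605 ± 1754, SD, n = 4), the largest SD of the 9 genes in T-like cells. The KO late value came from 2 cells, with 267 and 12 UMIs, whereas in WT early 22 of 59 cells were positive. Over all T-like cells, 19 cells with at least 10 UMIs held 1125 of the 1173 Gzma UMIs. In NK-like cells the values were 1576, 3124, 47.7, 2672 and 3834 CPM in WT early, KO early, WT intermediate, KO intermediate and KO late, and 8089 in WT late. WT intermediate, the library with the most Gzmd, Gzme and Gzmf, was thus the lowest for Gzma, with 2 UMIs in 1 of 6 cells.

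Gzmk, a granzyme known from memory-like CD8 T cells, was rare. It gave 50 UMIs in all 8 tables. T-like cells held 24 UMIs in 15 of 146 cells (10.3%), at 59.8 CPM in WT early, 41.5 in KO early, 30.8 in KO intermediate and 8.90 in KO late. NK-like cells held 0 UMIs over 30 cells, which allows up to 26.2 CPM, against a pooled 38.8 CPM (exact Poisson 95% interval 24.8 to 57.7) in T-like cells, so a difference was not detectable at this depth.

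Some effectors were seen in the same T-like cells. Of the 30 Gzma-positive cells 26 (86.7%) held Gzmb, against 66 of 116 (56.9%) without Gzma, and 12 of the 30 held Gzmk against 3 of 116 (2.59%). Of the 24 Prf1-positive cells 19 (79.2%) held Gzmb, against 73 of 122 (59.8%) without Prf1. Prf1 itself was in 5 of 30 Gzma-positive (16.7%) and 19 of 116 Gzma-negative cells (16.4%). These are descriptions of single cells that share libraries and differ in depth, and they carry no test. In NK-like cells the order was the other way for Gzma and Gzmc, with Gzma in 10 of 21 Gzmc-positive cells (47.6%) and in 7 of 9 without Gzmc.

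Gzma was seen in CD8 and not in CD4 T-like cells. The cells were divided by Cd8a, Cd8b1 and Cd4 UMIs into 67 CD8, 39 CD4 and 40 cells with neither or both. Gzma was seen in 27 of the 67 CD8 cells and in 0 of the 39 CD4 cells. This allows a share of CD4 cells with a UMI of up to 7.69% and does not limit how many cells express the gene. The remaining Gzma-positive T-like cells, of 24592, 19618 and 7454 UMIs, held both CD8 and Cd4 UMIs. Its CD8 level was 6270 CPM in WT early (21 of 36 cells), 620 in KO early (2 of 7), 56.3 in KO intermediate (2 of 12) and 6035 in KO late (2 of 12). Against a floor of 3 UMIs per group, the pooled CD8 level was at least 251-fold higher. This pooled limit leans on WT early, which gave 854 CD8 Gzma UMIs against 10 in KO early and 279 in KO late. By library the level was at least 93.5-fold higher in WT early, 8.25-fold in KO early and 74.6-fold in KO late, with KO intermediate at the floor. In KO late 1 cell held 267 of the 279 UMIs, and without it the level was 305 CPM, at least 3.77-fold higher. Gzma did not pass the filter on low counts and was not tested.

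Gzmb was in both subsets. It stood at 3216, 1737, 620 and 3266 CPM in CD8 cells of WT early, KO early, KO intermediate and KO late, and at 44.7, 1679, 1482 and 2156 CPM in the CD4 cells, so the groups overlapped and the ratio ran from 71.9 in WT early to 0.418 in KO intermediate. Nkg7 stood at 1909, 2109, 1766 and 2877 CPM in CD8 and at 1319, 1704, 1459 and 1294 CPM in CD4 cells, higher in CD8 cells in 4 of 4 libraries, and its groups did not overlap. The remaining members were sparse, with 20 Gzmk UMIs in CD8 and 1 in CD4 cells, 25 and 19 of Prf1, 26 and 2 of Gzmc, and 34 and 0 of Gzmf.

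Neither of the 2 testable members passed the test between CD8 and CD4 cells, where 1.44% of 832 genes were called, 0.841% higher and 0.601% lower in CD8 cells. Gzmb had a log2 fold change of 0.78 (SE 0.70, edgeR adjusted p = 0.780) and Nkg7 of 0.58 (SE 0.22, edgeR adjusted p = 0.282). At an unadjusted edgeR p under 0.05 Nkg7 alone of the 2 passed, and DESeq2 called neither. Of the pathway genes that the subset cut did not use, the chemokine gene Ccl5 (2494 against 233 CPM, log2 fold change 3.16, SE 0.52, edgeR adjusted p = 0.00948) and the receptor chain Klrd1 (2.00, SE 0.40, edgeR adjusted p = 0.0254) were higher in CD8 cells.

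**Figure D4:**
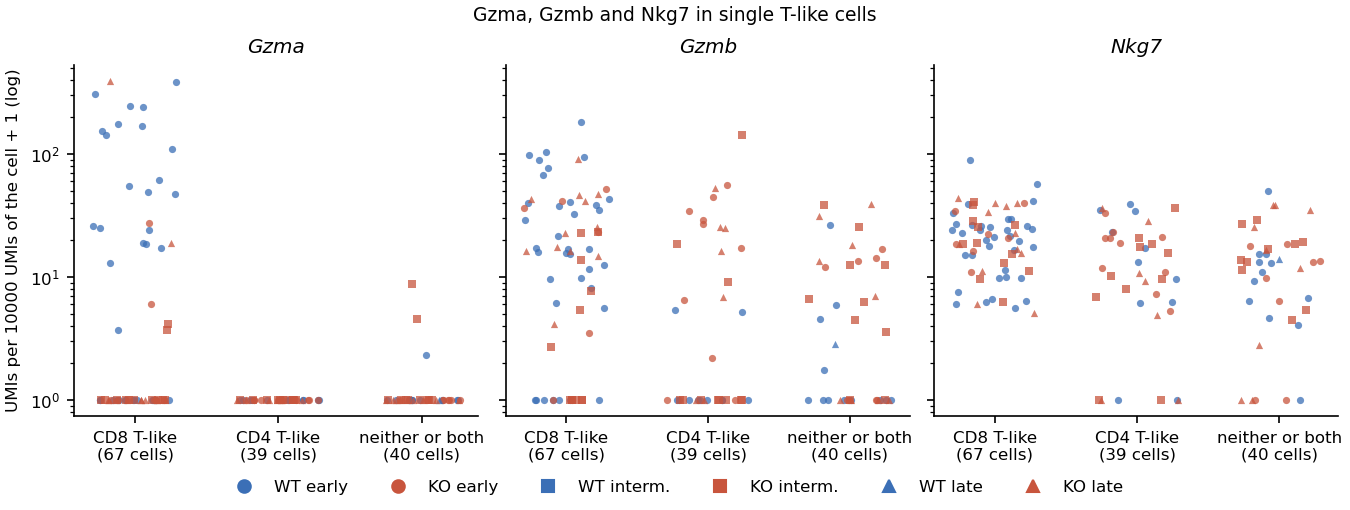
Gzma, Gzmb and Nkg7 in single T-like cells (UMIs per 10000 + 1, log axis), divided into CD8 (67 cells), CD4 (39 cells) and cells with neither or both (40 cells). Gzma is at 0 in all CD4 cells and high in part of the CD8 cells, while Gzmb and Nkg7 are seen in both.

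Other genes of the cytotoxic pathway were read from 10 lists of 4 to 12 genes each. Between NK-like and T-like cells, most were too low to be tested. The packing genes did not pass the test: Srgn, the proteoglycan core of the granule, stood at 2281 CPM in NK-like and 2263 CPM in T-like cells (log2 fold change -0.08), and Cst7, an inhibitor of granule cathepsins, had a log2 fold change of 0.61 (edgeR adjusted p = 0.715). Of the packing list 0 of 2 tested genes passed, of the other granule proteases 0 of 1 (Ctsw, 0.72, edgeR adjusted p = 0.530), and of the transport list 0 of 1. Of the protease inhibitors 1 of 2 was higher, Serpinb9, the inhibitor of granzyme B that protects killer cells from their own protease, at 1252 against 254 CPM (2.31, SE 0.32, edgeR adjusted p = 0.00194).

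Of the death ligands and cytokines 1 of 3 was higher in NK-like cells, the chemokine gene Xcl1 (4.02, edgeR adjusted p = 0.000301), and 2 were lower, Ccl4 (-2.29, adjusted p = 0.0238, but 0.31 with cells of at least 500 genes) and Ccl5 (-3.29, adjusted p = 0.00200). Of the transcription factors 1 of 3 was higher, Irf8 (2.77, edgeR adjusted p = 0.000640), and of the NK and effector receptors 1 of 3, the signalling adaptor Tyrobp (4.31, adjusted p = 0.000225). Of the cytokine receptors 1 of 4 was lower, Il7r, the interleukin-7 receptor (-4.15, edgeR adjusted p = 0.0227). Both tested inhibitory receptors, Ctla4 (-2.68, edgeR adjusted p = 0.0227) and Pdcd1 (0 UMIs in NK-like cells, adjusted p = 0.0158), were lower, as were Cd4, Cd8a and Cd8b1 among 4 T cell subset genes. Cd4, Cd8a and Cd8b1 also had 0 UMIs in the NK-like cells tested. Like Pdcd1, they could pass the filter on low counts only through T-like cells. The calls of these genes are not read as support for a difference. The median log2 fold change of all 933 genes was -0.06.

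Across 8 sums, 4 of T-like and 4 of NK-like cells, the genes most like Gzmc by Pearson's r of log2(CPM + 10), among 1528 genes, were Fcer1g (0.965), Gnas (0.952) and Irf8 (0.935), and its r with Prf1 was 0.9503. Gzmb was nearest to Trbc1 (0.869), Pdia3 (0.863) and Spp1 (0.819), and Gzma to Nufip2 (0.892), Sp110 (0.830) and Mapre1 (0.827). These sums share libraries in pairs and differ in depth, so the coefficients are descriptions. For Gzmc and Prf1, which did not overlap between the classes, a high r can come from the class split alone. It does not show whether genes vary together within a class.

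Over the whole tables, which count every barcode and need no cell classes, the 9 genes were nearly absent from the naïve brain. The naïve tables held 11 Gzmb, 10 Nkg7 and 3 Gzmk UMIs and none of the other 6 genes, and all 11 Gzmb UMIs sat in the single NK-like cell of the KO naïve library. In tumour-bearing tables Gzma ran from 0.804 CPM in WT intermediate to 201 in WT early, with 39.5 in KO early, 16.2 in KO intermediate, 12.7 in WT late and 74.6 in KO late. Gzmb ran from 6.91 in WT late to 106 in KO late, with 104 in WT early, 65.7 in KO early, 13.97 in WT intermediate and 38.1 in KO intermediate. Whole tables cannot tell fewer cells of a type from less RNA per cell, and lymphocyte numbers differed between libraries as given above.

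Gzmc stood at 7.04, 38.1, 92.4, 22.5, 5.91 and 64.7 CPM in WT early, KO early, WT intermediate, KO intermediate, WT late and KO late. Prf1 stood at 5.44, 11.6, 9.65, 4.38, 1.51 and 14.7 CPM, and Nkg7 at 110, 56.1, 4.72, 67.7, 6.79 and 78.4 CPM in the same order. In each case the lowest tumour-bearing table lay above both naïve tables.

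Against naïve tables, 5 of the 7 testable members were called higher in tumour-bearing tables. Of the 18564 genes tested 28.3% were called higher and 54.9% either way. Gzmb had a log2 fold change of 5.24 (SE 1.40, edgeR adjusted p = 0.0114) and Nkg7 of 5.15 (SE 1.53, edgeR adjusted p = 0.0182). Gzma (edgeR adjusted p = 0.0380), Gzmc (0.0116) and Prf1 (0.00482) had 0 naïve UMIs. They could pass the filter on low counts only through the tumour-bearing tables, so their calls are not read as support for the difference. Against a floor of 3 UMIs over both naïve tables, their pooled levels were at least 101-fold, 83.3-fold and 15.6-fold higher. The limit for Gzma was 50.7-fold without WT early, and that for Gzmc 53.5-fold without WT intermediate. Gzmd (edgeR adjusted p = 0.183) and Gzmf (0.125) did not pass, and Gzme and Gzmk were not tested. Leaving out either naïve library left Prf1 as the only member called.

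In the same comparison 28.3% of all genes were called higher and 26.6% lower, so list counts near these shares are not results about the lists. Of the pathway lists, 5 of 9 tested NK and effector receptors were higher (Crtam, Klrc1, Klrd1, Klrg1 and Klrk1). So were 3 of 9 death ligands and cytokines (Ccl5 4.12, Xcl1 2.51 and Tnf 2.25 on the log2 scale) and 3 of 9 cytokine receptors (Il12rb1, Il18r1 and Il2rb). Of the T cell subset genes 3 of 7 were higher, among them Ccr7 and Cd44. The study uses Cd44 as its tumour cell marker, and Ccr7 led a dendritic cell cluster among the Leiden clusters. The source of these transcripts was not tested. Of 12 transcription factors Runx3 (6.62), Stat4 (4.12) and Eomes (3.11) were higher and Id2 (-1.71) was lower. Of the 3 other granule proteases tested Ctsw (4.55) was higher and Gzmm (-1.74) lower, of 5 packing genes Cst7 (3.51) was higher, and of 9 transport genes Stx11 (3.39), Unc13d (1.59), Stxbp2 (0.74) and Vamp7 (0.66) were higher while Syt7 (-2.51) and Lamp1 (-0.63) were lower. Of 4 protease inhibitors Serpinb1a (-1.91) and Serpinb6a (-0.46) were lower, and of 6 inhibitory receptors 0 passed.

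**Figure D5:**
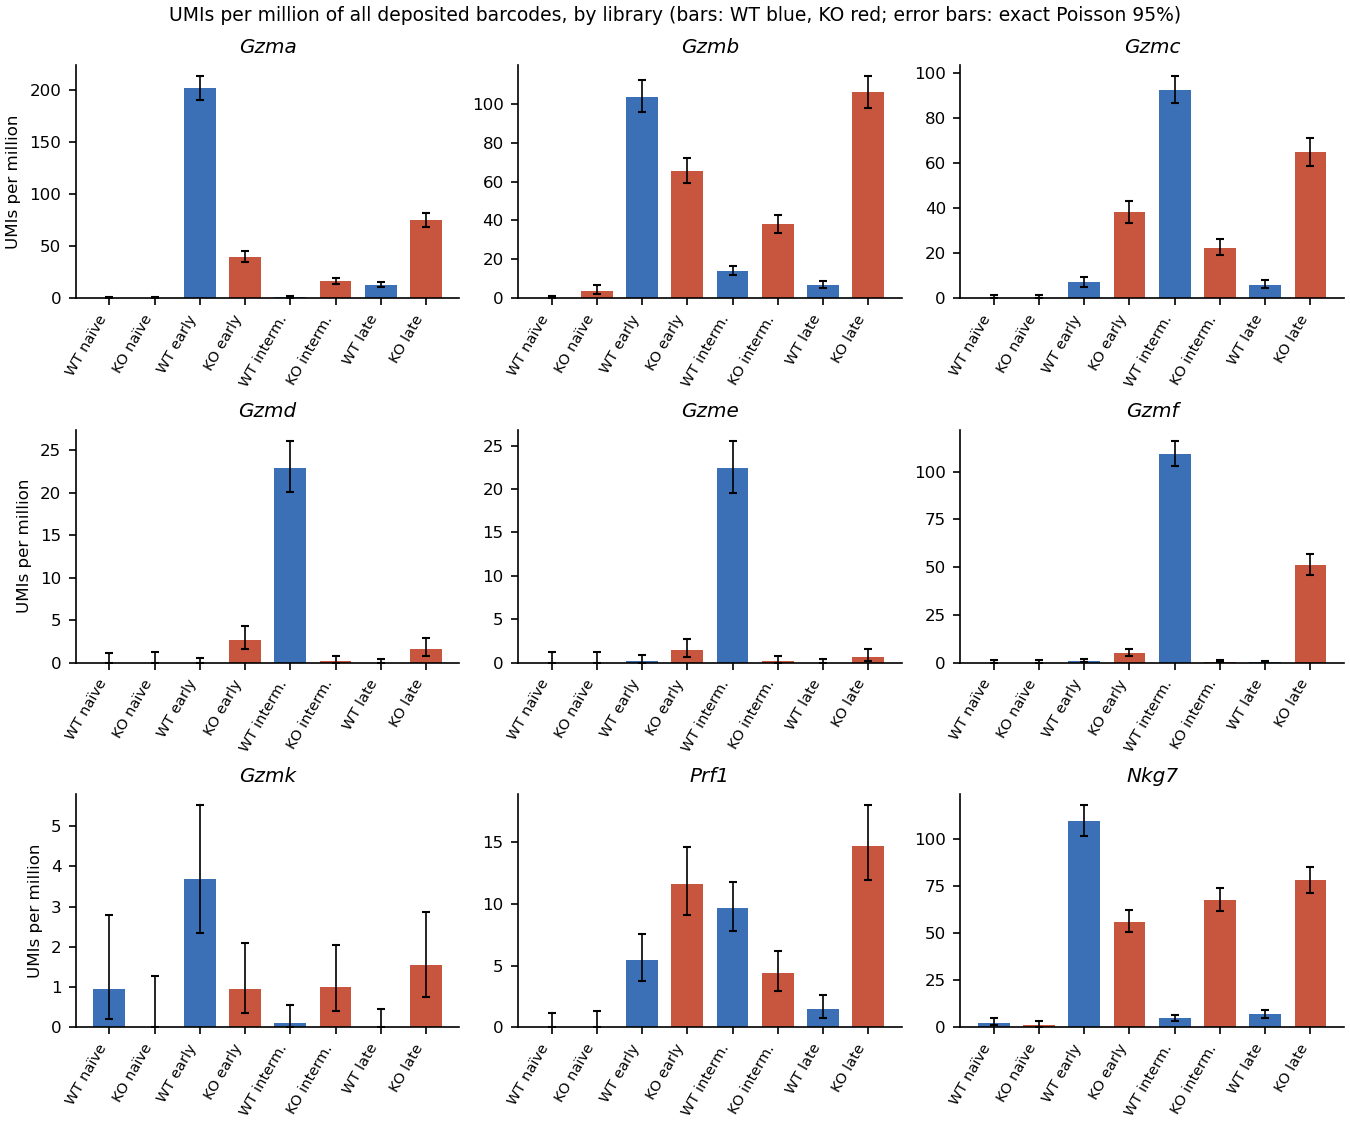
UMIs of each gene per 1000000 UMIs (CPM) of all deposited barcodes in the 8 libraries (blue WT, red KO), with exact Poisson 95% intervals. Gzma and Nkg7 are highest in WT early (201 and 110 CPM), whereas Gzmd, Gzme and Gzmf are highest in WT intermediate.

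The comparison of genotypes asks whether loss of Acod1 went with another effector level. Over the whole tables with stage as a factor, 0 of the 5 testable members and 0 of 16182 genes (0%) passed, while 650 genes had an unadjusted edgeR p under 0.05, none of them a member, and DESeq2 called 7 genes and no member. Gzmb had a log2 fold change of 1.71 (SE 0.82, edgeR adjusted p = 0.9998), Nkg7 of 1.91 (SE 1.04) and Gzma of 1.48 (SE 1.36). The sign varied with the stage: KO minus WT was -162 CPM for Gzma at the early stage and 15.4 and 61.9 CPM at the intermediate and late stage, and -53.5, 62.9 and 71.6 CPM for Nkg7.

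Within lymphocytes, 5 libraries had at least 5 such cells (WT late had 4). Gzmb stood at 1915 CPM in WT early and 1529 in KO early, at 3008 and 866 at the intermediate stage, and at 2254 in KO late. Gzmc stood at 154 and 522 CPM at the early stage, at 21104 and 452 at the intermediate stage and at 2306 in KO late. The genotypes overlapped for both. The WT intermediate sum was all NK-like and the KO intermediate sum mostly T-like, so class and genotype cannot be told apart at that stage.

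Between KO and WT lymphocytes 1 of 6 testable members passed, Gzmf, lower in KO (edgeR adjusted p = 1.55e-14), and it was the single call among 3181 genes (0.0314%). Its levels were 7.72 CPM in WT early, 0 in KO early, 25808 in WT intermediate, 4.71 in KO intermediate and 230 in KO late. WT intermediate, which held most of these UMIs, could not be left out of this comparison, and 937 of its 1081 UMIs sat in the barcode of 20080 UMIs. The call therefore describes WT intermediate and is not read as a difference between genotypes. Without doublet-like cells the adjusted p was 0.0372. In the whole tables Gzmf was higher in KO than in WT at the early (4.94 against 0.640 CPM) and late stage (51.0 against 0.377 CPM). In KO late, 277 of the 329 Gzmf UMIs sat in the barcode of 45600 UMIs in the tumour cell cluster. The call was lost with DESeq2 (adjusted p = 0.99985) and without the stage factor, and Gzmf could not be tested without KO late. Gzmb (-1.20, SE 0.57), Gzmc (-2.12, SE 1.07), Gzma (-0.46, SE 0.77), Prf1 (-1.47, SE 1.05) and Nkg7 (0.32, SE 0.56) did not pass (all edgeR adjusted p = 0.9996), with 1 residual degree of freedom. No gene of the 10 pathway lists was called.

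The late stage had 1 library with enough lymphocytes, KO late, whose spread had to be assumed like that of the others. The comparison with the early stage therefore describes that library. Calls in this comparison are not read as a difference between stages. In it 2 of the 8 testable members passed, beside 0.0966% of 4141 genes called, all 4 of them higher. Gzmc, called higher by 3.06 on the log2 scale, had 154 and 522 CPM in the early libraries and 2306 CPM in KO late. Gzmf went from 7.72 and 0 CPM to 230 CPM, and Klrg1, a receptor of differentiated killer cells, was the only pathway gene called (5.59 on the log2 scale). When WT late entered, with 3 cells per sum, neither Gzmc nor Gzmf passed (both edgeR adjusted p = 0.998). On the log2 scale Gzmc was higher by 2.99 with DESeq2, 2.96 with Leiden clusters and 3.03 without doublet-like cells. With cells of at least 500 genes it was higher by 1.87. None of these fits called Gzmc, and DESeq2 did not call Gzmf.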

How the data were processed

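Single-cell suspensions of naïve brain and, by the study's methods, of the dissected tumour region were measured by Drop-seq in 8 libraries. The authors demultiplexed with bcl2fastq 2.0, aligned with STAR (version not given in the sources used here) to GRCm38 (mm10) per the labels, and deposited UMI counts per gene and barcode, 3000 barcodes a library. A UMI is counted once, so these are molecules and not reads. Following the study's filters, the top 1000 barcodes per library, genes in at least 30 cells (18473 genes) and cells with at least 1000 genes were kept, giving 5698 cells with library medians of 2608 to 5643 UMIs. The 9 genes and Gzmg, Gzmm and Gzmn were left out of the 50 principal components of log2(CPM + 1). A tSNE (Rtsne 0.17, perplexity 50) was clustered by HDBSCAN (scikit-learn 1.9.0, at least 19 cells) into 16 clusters, and 261 unassigned cells took the majority label of 15 neighbours. T-like, NK-like, CD8 and CD4 classes were cut by marker UMIs as described in the text, and rest on rebuilt clusters, not on an annotation from the study.

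Counts were summed per library and class with at least 5 cells and tested with edgeR 4.0.16 (quasi-likelihood, TMM, filterByExpr, R 4.3.3, Benjamini-Hochberg at 0.05), with library as a block where classes were compared and stage or genotype as a factor otherwise. Intervals are exact Poisson for CPM and exact binomial for shares, both at 95%, and floors are 3 counts per group. Shares were also computed with every cell thinned to 1000 UMIs. Nothing in the labels gives replicate mice of 1 condition, so stages serve as the replicates of a genotype. Where classes were compared, p-values measure the spread of the differences within libraries. Elsewhere they measure the spread between libraries left after the fitted factors, in which mouse, sex and stage are mixed. Alternatives were DESeq2 1.42.0, RLE scaling, no filter, each library left out, other clusterings (Leiden, leidenalg 0.10.2, scanpy 1.11.5), other cell filters and doublet removal. No doublets were removed in the reported values. Scrublet called under 0.5% of cells in 4 libraries, too few to rely on, so the alternative removed the 5% highest scores there and the called cells elsewhere. Steps were tested on simulated data. Each of the 28 pairs of libraries shared 3 to 10 of their listed barcodes, and 2 barcodes passed the filters in more than 1 library (1 of them in 7 libraries, 9 cells in all, none a lymphocyte). They were kept as separate cells.

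All 9 members were named, with the genes of 10 pathway lists. The members, lists and marker sets were chosen with earlier results of these data known. Promoters come from RefSeq (GRCm38.p6) and positions from GENCODE M21, matched by symbol.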

Additional observations from a re-analysis of the deposited data

Results flagged for a closer look

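In 8 of 24 groups of 4 or 6 libraries tested for a single value far from the others (Dixon's test, which chance passes in about 1 in 20 groups), 1 library stood apart. The groups share libraries and barcodes and are not independent, so the count of 8 is not compared with that rate. WT early stood apart for Gzma in the whole tables, at 201 CPM against 74.6 in the next library. WT intermediate stood apart for Gzmd and Gzme in the whole tables, at 22.9 CPM (next 2.71) and 22.4 CPM (next 1.43). The same library stood apart for Gzmd and Gzme (5252 CPM each) and Gzmf (25808 CPM) in NK-like cells, where the other libraries had 0, so that any level in the remaining library would have stood apart. KO late stood apart in T-like cells for Gzmc, at 187 CPM against 27.7, and for Gzmf, at 276 CPM against 8.54.

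The difference between KO and WT whole tables had opposite signs at the early and a later stage, with exact Poisson intervals of the genotypes apart at both, for 8 of the 9 genes (all but Gzme), and these contrasts were not tested. KO minus WT was -162 CPM for Gzma at the early and 15.4 and 61.9 at the intermediate and late stage. It was -38.1 and then 24.2 and 99.1 CPM for Gzmb, and -53.5 and then 62.9 and 71.6 CPM for Nkg7. For 4 of these 8 genes it was negative at the intermediate stage only: 31.1, -69.9 and 58.8 CPM at the early, intermediate and late stage for Gzmc, 2.71, -22.8 and 1.55 for Gzmd, 4.30, -109 and 50.7 for Gzmf, and 6.20, -5.27 and 13.2 for Prf1. In WT intermediate the barcode of 20080 UMIs held 71 of the 95 Prf1 UMIs of NK-like cells. It also held 937 of their 1081 Gzmf and 192 of their 220 Gzmd UMIs. The negative sign for Prf1, and its place among the 8 genes, rest on this barcode. For Gzmk it was -2.72 CPM at the early and 1.55 at the late stage.

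Barcodes that did not pass the cell filters also held the 9 genes, at 273 CPM (2434 UMIs) over the tumour-bearing libraries, from 45.0 to 566 CPM, against 3.86 CPM (11 UMIs) over the naïve libraries.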

How the results depend on the processing

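Samples could not be paired across groups, because every group has the single replicate number 1. Cell classes were compared as pairs within libraries. The 10 cells per sum alternative and most single-library omissions could not be fitted for the lymphocyte comparisons of genotype and stage, nor could T-like cells alone. Alternatives for fewer cells per sum, fewer genes per cell, the Foxp3 cells, the top cells, and libraries left out of shares, of floors and of cells outside the lymphocytes were chosen after seeing the data. Between NK-like and T-like cells, 43 genes were called, against 88 with no filter and 76 with cells of at least 500 genes, and 5 to 53 when 1 library was left out (5 without KO early, 11 without KO intermediate, 53 without WT early). Gzma passed there with no filter (log2 1.92) and with 500 genes (1.89). Gzmb, at 0.22, turned to -0.37 with no filter, ran from -0.20 without KO early (-0.196 without KO intermediate) to 0.826 without WT early, and was -0.0691 without T-like cells holding NK markers and -0.17 with all CD3-negative lymphocytes, and Ccl4 to 0.31 with 500 genes; the cause was not tested. No filter moved the median of all genes to -1.10 here and to -0.39 for late against early. For KO against WT lymphocytes, 1 call became 0 with DESeq2, without KO late, with no stage factor, in NK-like cells alone, with 3 cells per sum and with 500 genes, and 7 with no filter. In NK-like cells alone Gzma turned to 2.504 and Gzmb to 0.0403. In the lymphocyte comparison Gzmc, at -2.12, ran from -3.45 with no stage factor to -0.18 with 500 genes. Prf1, at -1.47, ran from -2.61 with no stage factor to -0.68 without doublets. For late against early, 4 calls became 0 with DESeq2, 3 cells per sum and 500 genes, 1 with Leiden clusters, 1 without doublets and 2 without the top cell. For CD8 against CD4, 12 calls became 35 with no filter, 22 with 500 genes, 24 without Foxp3-positive cells and 6 to 21 with 1 library left out, and Gzmb ran from -0.14 without WT early to 1.52 without KO intermediate. For tumour-bearing against naïve tables, 10190 calls became 5389 to 11492 with 1 library left out (5389 without KO naïve and 5476 without WT naïve). For KO against WT tables, 0 calls became 7 with DESeq2 and 1 with no filter. The 90 alternative values of levels stayed within 1 SD between libraries, but for Gzmd, Gzme and Gzmf in NK-like cells that SD comes from WT intermediate alone, and doublet removal took their level over the tumour-bearing libraries from 1918 to 303 CPM (Gzmd and Gzme each) and from 9425 to 1559 CPM (Gzmf). Depth limits the low members: T-like cells could not show Gzmd or Gzme under 4.85 CPM, nor NK-like cells Gzmk under 26.2 CPM.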
